A study of Saccharomyces cerevisiae with 8 samples.

Results

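The 10 post-squalene ergosterol synthesis genes of budding yeast (Saccharomyces cerevisiae) were followed through a hydroxyurea block and the recovery from it. They were taken by name as the rows ERG1, ERG7, ERG11, ERG24, ERG25, ERG26, ERG27, ERG6, ERG2 and ERG3 of a table of 6547 features. No measured value entered this rule, but the genes were chosen with earlier results of these data known. The mRNA came from a strain labelled wild type (WT, strain WFA72) and from strain WFA73 of genotype mec1, in which the checkpoint kinase gene MEC1, the yeast counterpart of ATR, is altered; the labels name no allele. Both strains were arrested in G1 with alpha factor (G1), released into 200 mM hydroxyurea for 1 h (HU), and then filtered into medium free of the drug for 30 min (R30) or 60 min (R60). All 8 libraries therefore come from cells that had been through alpha factor, and each strain and time has 1 library and no replicate. No library comes from cells released without the drug. Between G1 and HU, the drug, the release from alpha factor and the time since release cannot be told apart. From HU to R30 and R60, the same holds for removal of the drug, filtering and time.

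Ergosterol is the main sterol of fungal membranes and takes the place that cholesterol has in animal cells. Squalene is first oxidised and closed into the ring compound lanosterol, which then loses methyl groups, gains one on its side chain and has its double bonds moved until ergosterol is formed. Several of these enzymes use molecular oxygen together with haem or iron, and many genes of the pathway are controlled by the transcription factors Upc2 and Ecm22, which bind a short promoter sequence, the sterol regulatory element. Hydroxyurea inhibits ribonucleotide reductase, an iron-containing enzyme, and so depletes the precursors of DNA.

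The core of the sterol regulatory element, TCGTATA, was looked for on both strands of the 500 bp before each start codon in the R64 reference genome (RefSeq). It stood before 5 of the 10 genes (50%), compared with 420 of 6000 protein-coding genes (7.0%) and 2 of the 10 measured genes of the preceding mevalonate pathway (20%). A match describes the letters in this window and not binding. The 5 genes with a match had fitted changes from G1 to HU of -0.88 to -0.10 on the log2 scale and the 5 without -0.73 to 0.18, so the ranges overlapped. From HU to R30 the ranges were 0.41 to 0.72 and 0.14 to 0.77. The stretches around the matches are shown because the genes that hold them can be read against their values below. Each is written on the strand of its gene, with the core in capitals and up to 30 bp on either side. The ERG1 stretch is chrVII:848769-848835 (minus strand) and its match lies 375 bp before the start codon. The ERG25 stretch is chrVII:610064-610137 (plus strand), with matches at 456 and 476 bp. The ERG6 stretch is chrXIII:253386-253452 (minus strand), with its match at 425 bp. The ERG2 stretch is chrXIII:667322-667388 (plus strand), with its match at 178 bp. The ERG3 stretch is chrXII:253505-253611 (plus strand), with a match at 279 bp and one on the opposite strand at 319 bp, which reads TATACGA.
ERG1: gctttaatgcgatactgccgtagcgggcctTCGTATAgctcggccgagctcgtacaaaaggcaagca
ERG25: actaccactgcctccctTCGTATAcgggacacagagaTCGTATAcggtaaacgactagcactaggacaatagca
ERG6: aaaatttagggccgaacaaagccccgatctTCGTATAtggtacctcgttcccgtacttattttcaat
ERG2: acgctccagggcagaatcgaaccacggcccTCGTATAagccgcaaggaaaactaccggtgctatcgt
ERG3: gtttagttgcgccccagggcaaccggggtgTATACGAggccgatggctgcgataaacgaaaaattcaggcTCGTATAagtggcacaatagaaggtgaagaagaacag

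Values are RPM (reads scaled to a common library total), averaged by the authors over all genome windows that a gene touches. Each gene gives a window for its body and one for the 1000 bp on either side. Reads of close neighbours therefore count towards a gene. For the 10 genes, an estimate with neighbours separated is given where it changes a result. Fitted changes of other genes are from deposited values, and no separated estimate of them is given. Fits with a library left out are not given for other genes either. How far their calls rest on single libraries is therefore not shown. Between 1596132 (WT HU) and 3935979 (mec1 G1) reads stood behind the RPM scale of a library. The mean reads per window behind a value of the 10 genes were never under 222. RPM is a share of a library, so less RNA of a gene per cell, fewer cells with that RNA and more RNA of other genes cannot be told apart.

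The libraries were checked against their labels with marker genes. The summed value of 4 genes of the pheromone response was 2421 RPM in WT G1 and 1843 RPM in mec1 G1, and 161 to 232 RPM in the other 6 libraries. For 4 genes induced by hydroxyurea through the checkpoint (HUG1, RNR2, RNR3 and RNR4), the sum was 555 and 5111 RPM in the G1 and HU libraries of the wild type, and 482 and 786 RPM in those of mec1. The summed value of 4 alpha mating type genes was 54.3 to 133 RPM, against 856 to 4822 RPM for 7 genes of mating type a. MEC1 itself stood at 35.7 to 90.3 RPM in WT and at 76.6 to 124 RPM in mec1, and with neighbours separated at 39.9 to 45.6 RPM and 119 to 134 RPM. With no allele given, this level does not check the genotype.

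Ergosterol genes were lowest under hydroxyurea in the wild type. Summed over the 10 genes, WT had 4832 RPM in G1, 3435 RPM in HU, 5118 RPM at R30 and 5429 RPM at R60. The mec1 strain had 5166, 4615, 6297 and 5852 RPM at the same times. Of the 10 genes, 7 had their lowest value of all 8 libraries in WT HU, and 5 had their highest in mec1 R30. The exceptions for the lowest value were ERG6 (mec1 HU), ERG24 (WT R60) and ERG27 (WT G1).

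ERG1 and ERG7 encode the enzymes that make the sterol ring. ERG1 (YGR175C, chrVII:846933-848423 in R64, minus strand) encodes squalene epoxidase, the target of terbinafine. It stood at 611, 487, 555 and 696 RPM at G1, HU, R30 and R60 of the wild type, and at 725, 508, 792 and 827 RPM in mec1. The HU library was the lowest of both strains. On deposited values mec1 minus WT was 0.25, 0.06, 0.51 and 0.25 on the log2 scale; the value at HU has a counting interval of -0.07 to 0.19 and was -0.01 with neighbours separated. ERG7 (YHR072W, chrVIII:239098-241293, plus strand) encodes lanosterol synthase, which closes the rings. Its values were 241, 201, 268 and 246 RPM in the wild type and 264, 237, 274 and 223 RPM in mec1. On these deposited values its highest library was 1.36 times its lowest. ERG7 shares windows with NOP10, whose gene lies 370 bp away and which stood at 265 to 369 RPM, and it overlaps the feature YHR071C-A.

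ERG11 and ERG24 encode the demethylation of lanosterol and the reduction that follows it. ERG11 (YHR007C, chrVIII:120091-121683, minus strand) encodes lanosterol demethylase, a haem enzyme and the target of azole antifungals. It had 729, 359, 683 and 843 RPM in the wild type and 752, 731, 1117 and 955 RPM in mec1. The G1 libraries of the strains were close, whereas the WT HU library stood far below every other library. ERG24 (YNL280C, chrXIV:109095-110411, minus strand) encodes sterol reductase. The table gave it 289.6, 192, 227 and 190.2 RPM in the wild type and 271, 275, 283 and 272 RPM in mec1, so the deposited mec1 values hardly moved. Its values include reads of neighbours that moved strongly, described below.

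ERG25, ERG26 and ERG27 encode the complex that removes a pair of methyl groups from the ring. ERG25 (YGR060W, chrVII:610564-611493, plus strand), the iron-dependent methyl oxidase, stood at 839.5, 669, 889 and 1001 RPM in the wild type and 890.4, 774, 1094 and 1010.5 RPM in mec1. ERG26 (YGL001C, chrVII:495453-496502, minus strand), the decarboxylase, stood at 261, 139, 181 and 200.1 RPM in the wild type and 281, 191, 252 and 233 RPM in mec1. Both were lowest in the HU library of each strain, and ERG26 had its highest value in G1 in both strains. ERG27 (YLR100W, chrXII:341810-342853, plus strand), the keto reductase, differed: it stood at 193, 215, 226 and 196 RPM in the wild type and 201, 233, 296 and 292 RPM in mec1, with its lowest value in the G1 library of each strain. ERG27 also overlaps the feature YLR101C, and the reads of both cannot be told apart.

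ERG6, ERG2 and ERG3 encode the later changes to side chain and double bonds. ERG6 (YML008C, chrXIII:251839-252990, minus strand), the sterol methyltransferase, stood at 257, 139, 212 and 187 RPM in the wild type and 250.0, 136, 244 and 220.1 RPM in mec1. Its strains were close to each other in G1 and in HU, and the HU library was the lowest of each. ERG2 (YMR202W, chrXIII:667537-668205, plus strand), the sterol isomerase, stood at 862, 616, 1057 and 1044 RPM in the wild type and 944, 859.6, 1040.3 and 1001 RPM in mec1. ERG3 (YLR056W, chrXII:253861-254958, plus strand), the iron-dependent sterol desaturase, stood at 548, 417, 821 and 825 RPM in the wild type and 588, 670.0, 904 and 818 RPM in mec1. ERG3 was below G1 in the WT HU library and above G1 in the mec1 HU library, and in both strains stood well above G1 during recovery.

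**Figure D1:**
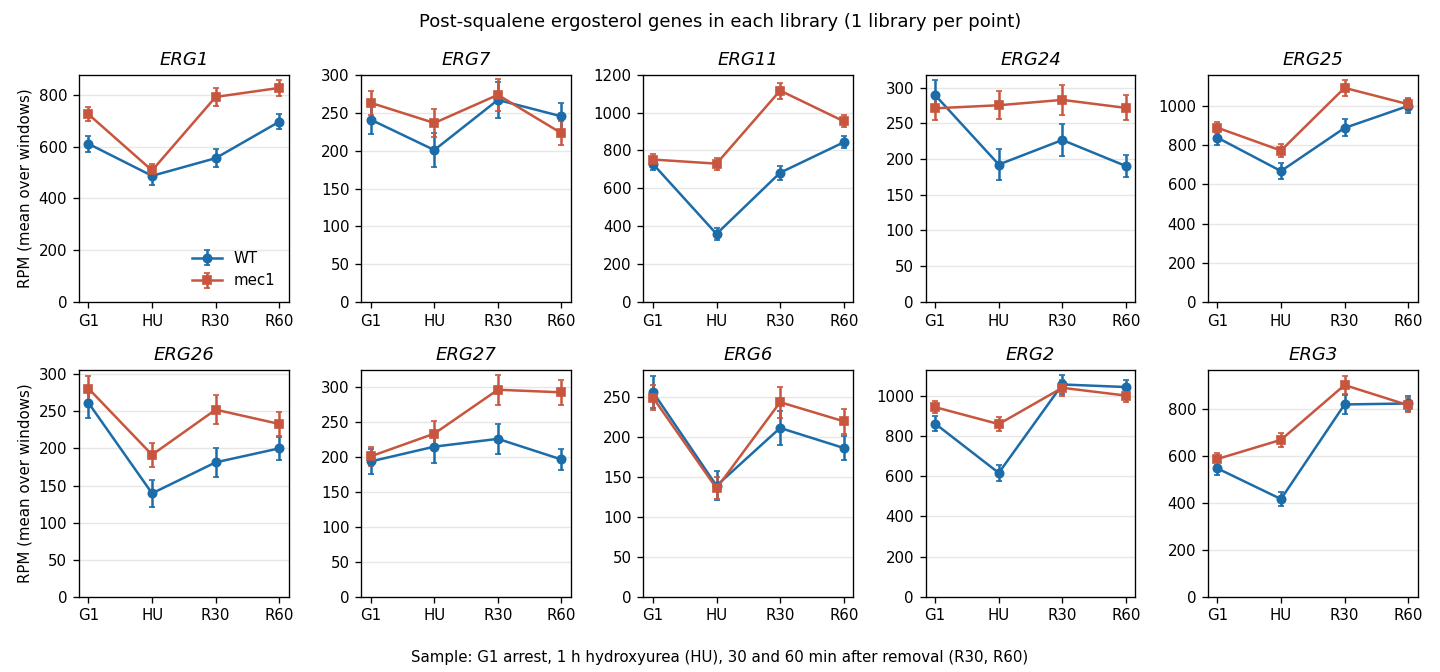
RPM (vertical axes, each starting at 0) of the 10 genes in each library by sampling point, with WT in blue and mec1 in red; each point is 1 library and the bars are 95% intervals for counting error only. In HU, ERG11 stood at 359 RPM in the wild type and 731 RPM in mec1, and ERG6 at 139 and 136 RPM.

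Levels can be compared between genes only per length, so the separated values were divided by gene length. As means over the 8 libraries, ERG2 (2357 RPM per kb), ERG25 (2297), ERG11 (1779) and ERG3 (1734) were the most abundant. ERG1 followed with 1049 RPM per kb, then ERG6 with 498, ERG26 with 427 and ERG27 with 420. The least abundant were ERG7 (244) and ERG24 (217). Neighbours in this order overlapped in their ranges over the libraries, with 2 exceptions. Every ERG1 library (771 to 1361 RPM per kb) was above every ERG6 library (319 to 635), and every ERG27 library (325 to 549) was above every ERG7 library (194 to 300.4).

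In hydroxyurea, 2 of the 10 genes, ERG6 and ERG26, were lower than in G1 in a test across both strains. The fitted change of ERG6 from G1 to HU was -0.88 ± 0.13 (SE, log2(RPM + 1)), with a limma adjusted p of 0.0136 (Benjamini-Hochberg over 6504 tested features). For ERG26 it was -0.73 ± 0.14, with a limma adjusted p of 0.0267. Both genes were lower in HU in both strains, ERG6 by 0.88 and 0.87 and ERG26 by 0.90 and 0.55 on the log2 scale in WT and mec1. Over all features, 4.52% were called lower and 4.57% higher (9.09% in either direction). Both calls were lost when any 1 of the G1 or HU libraries was left out (limma adjusted p 0.0503 to 0.149), and ERG26 also lost its call without either R30 library (0.0576 and 0.0589). With no replicates, these p-values weigh a change common to the strains against the unevenness of the strains across times. They do not weigh it against the spread between cultures.

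The other 8 genes did not pass the test. Of the 10 fitted changes, 9 were negative, with a median of -0.30 beside -0.02 over all features, of which 47.4% were positive. The median was -0.16 without the WT HU library and -0.41 without that of mec1. ERG11 had -0.53 (95% interval -1.10 to 0.04), the widest interval of the 10. Its value was -0.18 without WT HU, -0.24 without WT G1, -0.83 without mec1 G1 and -0.89 without mec1 HU. ERG1 had -0.42 (-0.74 to -0.09) with a limma adjusted p of 0.0947. ERG27 was the only gene with a positive value, 0.18 (-0.19 to 0.55). ERG3, which moved in opposite directions in the strains, had -0.10 (-0.53 to 0.32).

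Removal of hydroxyurea was followed by higher deposited values of every one of the 10 genes, although none was called. With neighbours separated, ERG24 in WT had 267 RPM in HU and 263 RPM at R30. That is a log2 difference of -0.022, and 0.020 with gene ends extended by 100 bp. The fitted changes from HU to R30 ran from 0.14 (ERG24) to 0.77 (ERG11), with a median of 0.43 beside 0.04 over all features, of which 55.6% were positive. ERG6 had 0.72 ± 0.13 (limma adjusted p = 0.0662), ERG3 had 0.70 ± 0.18 (0.126) and ERG2 had 0.53 ± 0.16 (0.168). In limma, 8 of the 10 had an unadjusted p under 0.05, all but ERG24 and ERG27, compared with 16.8% of all features. Over all features, 0.861% were called in this comparison, 0.277% higher and 0.584% lower. This step shares its HU libraries with the step before it, so a low HU library enters both.

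From R30 to R60 the 10 genes did not move together. The fitted changes lay between -0.21 (ERG7) and 0.19 (ERG1), and 4 were positive. None of the 10 genes and none of the 6504 features was called (0%), and limma gave an unadjusted p under 0.05 for 0 of the 10 genes and 4.01% of all features.

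At R60, compared with G1, the genes split by direction and none was called. ERG3 had the largest positive value, 0.53 ± 0.18, with 548 and 588 RPM in G1 and 825 and 818 RPM at R60 in WT and mec1 (limma adjusted p = 0.193). ERG26 (-0.33 ± 0.14) and ERG6 (-0.32 ± 0.13) were still negative, with limma adjusted p of 0.252 and 0.236. These were the 3 genes with an unadjusted p under 0.05, compared with 19.8% of all features. Over all features, 1.58% were called, 0.661% higher and 0.923% lower. The median of the 10 genes was 0.18 and that of all features 0.02; it was 0.054 without mec1 G1 and 0.061 without WT R60.

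**Figure D2:**
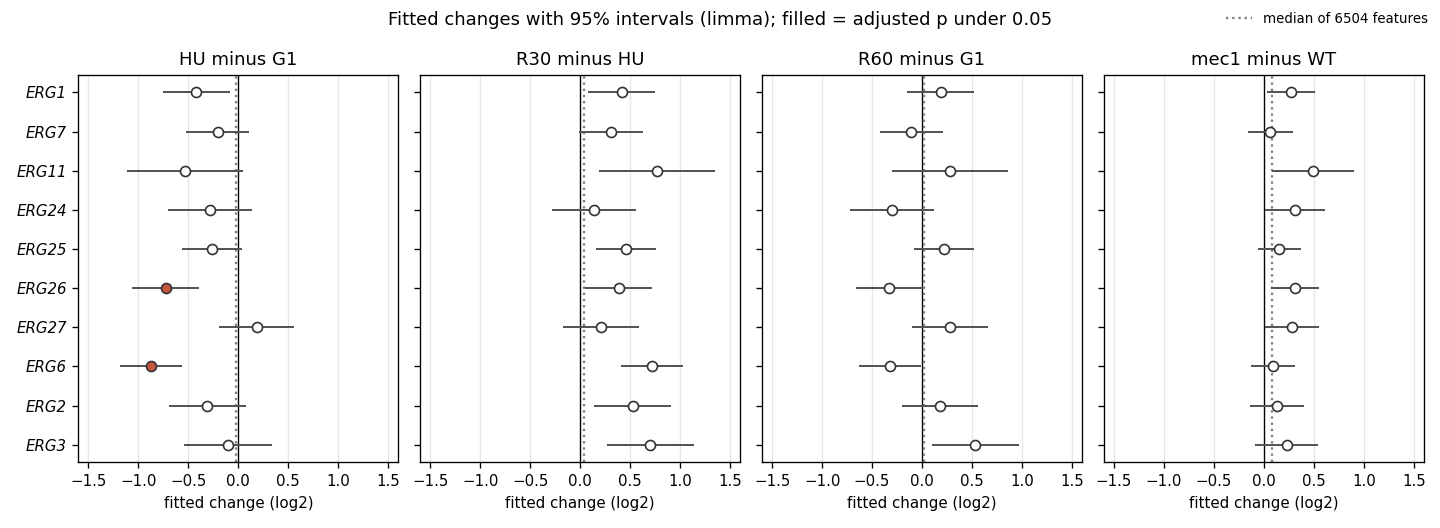
Fitted changes (log2, horizontal axes) of the 10 genes in 4 comparisons, with 95% intervals from limma; filled circles passed an adjusted p of 0.05 and dotted lines give the median of the 6504 tested features. ERG26 and ERG6 were called in HU minus G1, and in R30 minus HU all 10 points lie above 0.

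Averaged over the 4 times, all 10 genes had higher deposited values in mec1 than in WT, and none was called. The fitted differences ran from 0.07 (ERG7) to 0.49 ± 0.17 (ERG11), with a median of 0.25 beside 0.08 over all features, of which 64.6% were positive. In limma, 5 of the 10 (ERG1, ERG11, ERG24, ERG26 and ERG27) had an unadjusted p under 0.05, compared with 27.0% of all features, and the lowest limma adjusted p was 0.117 (ERG26). Over all features 0.277% were called, 0.169% higher and 0.108% lower in mec1. Scaling each library to its median moved the median of all features from 0.08 to -0.03, and ERG7 (-0.05) and ERG6 (-0.03) then had negative values. ERG24 turned from 0.31 to -0.28 once its neighbours were separated. ERG7, the lowest on deposited values, also depended on the separation. Its mec1 minus WT differences at G1, HU, R30 and R60 were 0.13, 0.24, 0.04 and -0.14 on deposited values. With neighbours separated and gene ends extended by 100 bp they were 0.54, 0.53, 0.61 and 0.15.

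At the HU point the strains stood apart for ERG11. Its log2 difference from G1 to HU was -1.02 in WT (95% interval for counting error -1.16 to -0.88) and -0.04 in mec1 (-0.12 to 0.04). The ERG11 change in WT lay at percentile 2.98 of the 6504 features, and that in mec1 at percentile 46.2. At HU itself, mec1 had 2.03 times the WT value of ERG11. The difference between the strains' responses, mec1 minus WT, was 0.98 (0.82 to 1.14). With 1 library per strain and time, none of these differences between strains was tested, and their intervals cover counting error only.

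ERG3 and ERG2 also had higher values in mec1 than in WT under hydroxyurea. From G1 to HU, ERG3 moved by -0.39 in WT (-0.53 to -0.26) and by 0.19 in mec1 (0.10 to 0.28), a response difference of 0.58 (0.42 to 0.74). ERG2 moved by -0.48 (-0.59 to -0.37) and -0.13 (-0.21 to -0.06), a response difference of 0.35 (0.22 to 0.48). ERG26 had a difference of the same size, 0.35 (0.09 to 0.62), although it was lower in HU in both strains.

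ERG6 and ERG1 had other patterns. ERG6 had a response difference of 0.00 (-0.27 to 0.28), so differences up to about that size in either direction are not resolved at this depth. On deposited values ERG1 had a negative response difference, -0.19 (-0.34 to -0.03): it moved by -0.51 (-0.60 to -0.42) in mec1 and by -0.33 (-0.45 to -0.20) in WT. Over the 10 genes, the response difference had a median of 0.24, and over all features 0.01. With neighbours separated the median was 0.13, and 0.10 with gene ends extended by 100 bp as well; 7 of the 10 differences were then positive, compared with 9 on deposited values.

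In the first 30 min after removal of the drug, each strain had its own order of differences on deposited values, which was not tested. The highest in WT were ERG3 (0.98, interval 0.84 to 1.11), ERG11 (0.93, 0.78 to 1.07) and ERG2 (0.78, 0.67 to 0.89). The highest in mec1 were ERG6 (0.84, 0.65 to 1.02), ERG1 (0.64, 0.54 to 0.74) and ERG11 (0.61, 0.53 to 0.69). With neighbours separated and gene ends extended, ERG24 in mec1 was 0.77, above ERG1 (0.71) and ERG11 (0.62). The WT differences start from the low WT HU library. At R30, mec1 was above WT for 9 genes, by up to 0.71 (ERG11), compared with 63.5% of all features, and ERG2 was at -0.02 (-0.11 to 0.06). With neighbours separated it was 8 genes, since ERG24 became -0.049.

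Later in recovery the strains moved in opposite directions for ERG11 and came closer. Between R30 and R60, ERG11 moved by 0.30 in WT (0.21 to 0.40) and by -0.23 in mec1 (-0.30 to -0.15). Its mec1 minus WT difference was 0.71 at R30 and 0.18 at R60. ERG27 ended at 196 RPM in the wild type and 292 RPM in mec1 at R60, a difference of 0.57 (0.43 to 0.72), after 193 and 201 RPM in G1. In mec1, 9 of the 10 genes were lower at R60 than at R30, and in WT 5 were lower (4 with neighbours separated). Over all features, 49.2% were lower in mec1 and 49.4% in WT.

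**Figure D3:**
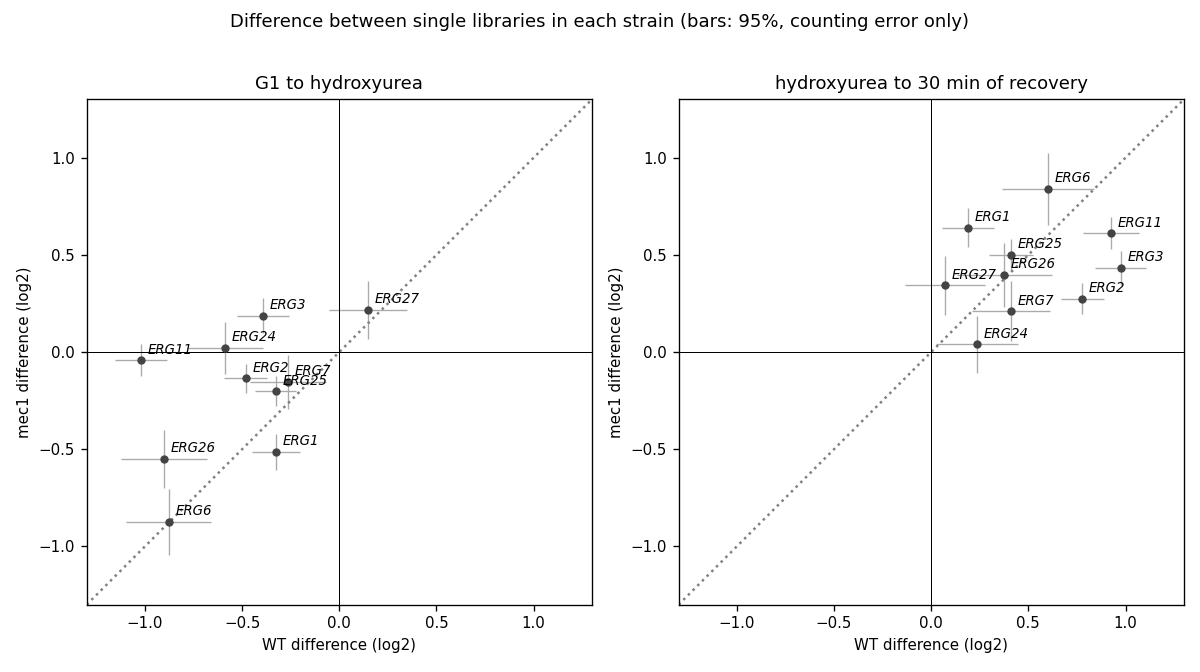
Log2 difference between single libraries in WT (horizontal axis) and mec1 (vertical axis), from G1 to hydroxyurea on the left and from hydroxyurea to 30 min of recovery on the right; bars are 95% intervals for counting error only and the dotted line marks equal differences. On the left, ERG11 lies at -1.02 in WT and -0.04 in mec1, whereas ERG6 lies on the line.

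ERG24 is the gene for which shared windows matter most. HCH1, which encodes a regulator of the chaperone Hsp90, lies 166 bp away, and PRM1, a gene induced by mating pheromone, lies 505 bp away on the table's coordinates. In G1 and HU, PRM1 had 420.1 and 34.2 RPM in the wild type, and 233 and 32.3 RPM in mec1. HCH1 had 237 and 228 RPM in the wild type, and 283 and 412 RPM in mec1. With the reads of neighbours separated, ERG24 had 424, 267, 263 and 293 RPM in the wild type and 351, 182, 255 and 249 RPM in mec1. The separated mec1 value was thus lower in HU than in G1, which the deposited one was not.

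On separated values, the ERG24 change from G1 to HU was -0.66 in WT and -0.95 in mec1. The fitted change of ERG24 was then -0.81 ± 0.15, with a limma adjusted p of 0.0452, and 3 of the 10 genes were called, ERG6 and ERG26 being the others. In the same separated fit, 123 of 5847 tested features were called lower and 138 higher. The difference of ERG24 between strains changed sign, from 0.52 to -0.55 at HU, from 0.32 to -0.049 at R30 and from 0.51 to -0.23 at R60. Its WT change from R30 to R60 turned from -0.25 to 0.15. Extending the gene ends by 100 bp in the separation gave a fitted change of -0.87 for ERG24 with a limma adjusted p of 0.0706, so its call rests on how the separation is made. ERG7 also depended on that choice: its WT change from G1 to HU was -0.24 without and -0.04 with the extension. For the other 8 genes, either separation moved the change from G1 to HU by at most 0.15 in both strains.

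**Figure D4:**
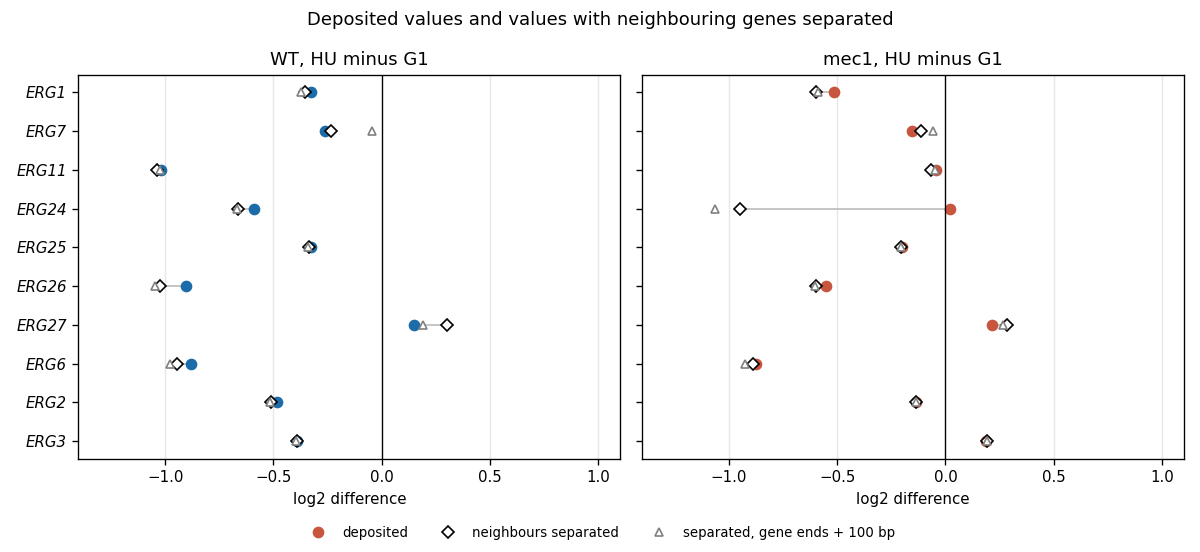
Log2 difference from G1 to HU (horizontal axis) of the 10 genes in WT and mec1 from the deposited values (filled circles), with neighbours separated (diamonds), and with neighbours separated and gene ends extended by 100 bp (triangles). ERG24 in mec1 moves from 0.02 to -0.95, and ERG7 in WT from -0.24 to -0.04 with the extension.

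The genes before squalene also had mostly negative values in HU. Of 10 measured genes of the mevalonate pathway and the steps to squalene, 4 were called lower in HU than in G1, compared with 4.52% of all features. In this list 9 had negative values, with a median of -0.49 beside -0.02 over all features, of which 47.4% were positive. The called genes were MVD1 (-1.70 ± 0.14, limma adjusted p = 0.00256), which encodes mevalonate diphosphate decarboxylase, and HMG1 (-0.78 ± 0.17, 0.0366), one of the HMG-CoA reductases. The others were IDI1 (-0.70 ± 0.14, limma adjusted p = 0.0346), the isopentenyl diphosphate isomerase, and ERG12 (-0.58 ± 0.13, 0.0387), mevalonate kinase. Fits with a library left out are not given for these genes. Between G1 and HU, MVD1 fell from 451 to 125 RPM in the wild type and from 452 to 154 RPM in the mutant, and at R60 was still called lower than G1 (-0.93, limma adjusted p = 0.0289). Of all features, 0.923% were called lower at R60 than in G1. All 10 genes of this list had positive values from HU to R30, compared with 55.6% of all features, and none was called.

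Among the steps after ERG3, ERG4, which encodes the final reductase of the pathway, was called higher in HU (0.75 ± 0.17, limma adjusted p = 0.046), with 243 and 302 RPM in G1 and 499 and 419 RPM in HU in WT and mec1. It was the only one of the 6 genes of the last steps and partner proteins to be called. Of all features, 4.57% were called higher in HU than in G1 and 4.52% lower.

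**Figure D5:**
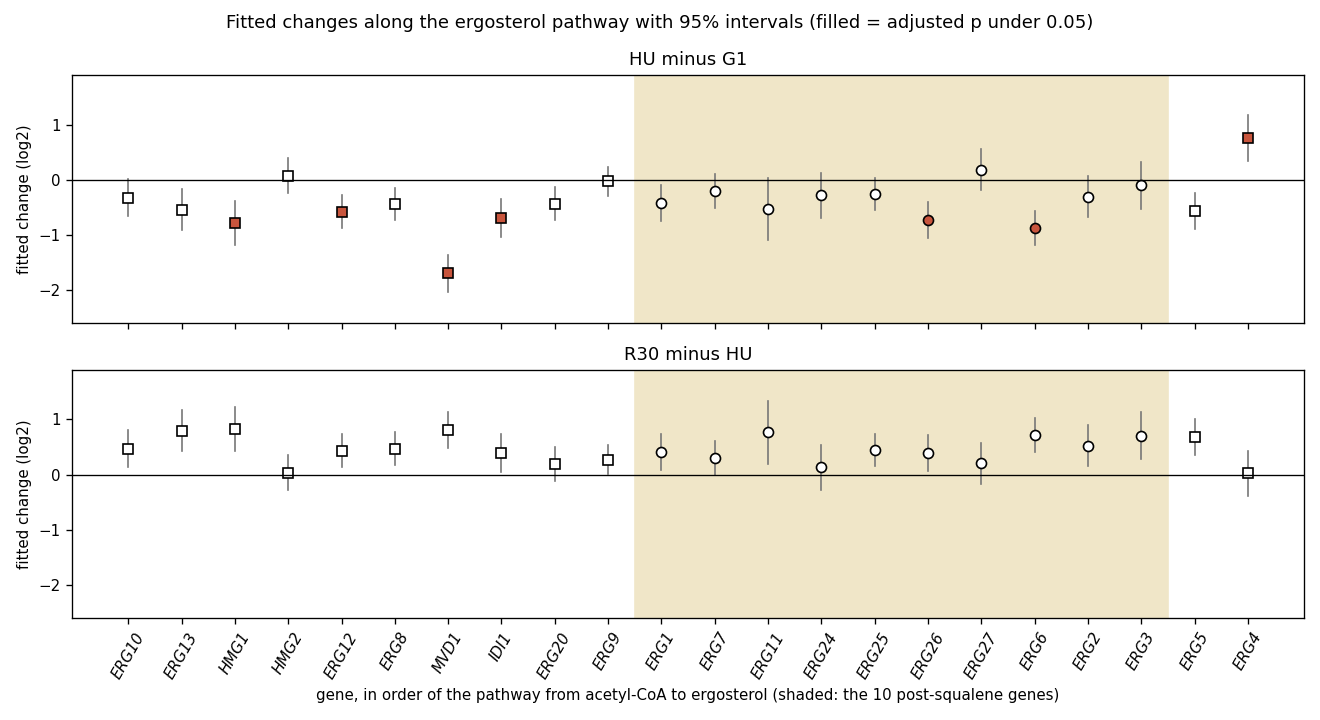
Fitted changes (log2, vertical axes) with 95% intervals along the pathway from acetyl-CoA to ergosterol, from G1 to HU above and from HU to R30 below; the 10 post-squalene genes are shaded and filled symbols passed an adjusted p of 0.05. MVD1 at -1.70 and ERG4 at 0.75 are the extremes of the upper panel.

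Among 5 transcription factors of sterol and haem control, none was called in HU minus G1. ROX1, a haem-dependent repressor of low-oxygen genes, had -0.92 ± 0.24 (limma adjusted p = 0.0596). UPC2 had 0.34 ± 0.23 (0.365) and ECM22 had 0.30 ± 0.32 (0.561). Of 14 measured genes of sterol esterification, transport and uptake, ARE1 was called higher (1.07 ± 0.14, limma adjusted p = 0.0109) and OSH7 lower (-0.52 ± 0.11, 0.0388). ARE1 encodes a sterol acyltransferase and was also called higher at R60 than in G1 (1.03, limma adjusted p = 0.0209). The shares of all features called in HU minus G1 were 4.57% higher and 4.52% lower, and 0.661% were called higher in R60 minus G1. None of these lists had a called gene in R30 minus HU, R60 minus R30 or mec1 minus WT.

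Across the 8 libraries, the profiles of the 10 genes were alike to different degrees. Over the 45 pairs, Pearson's r of the values ran from 0.08 (ERG7 and ERG27) to 0.92 (ERG2 and ERG3), with a median of 0.60. ERG11 followed the mean of the other members most closely (r = 0.95) and ERG27 least (0.40). These are descriptions over 8 libraries that share their scaling and their times. Of 3936 other features with a mean of at least 50 RPM and farther than 3 kb from a member, those most like the members' mean profile were MEI4 (r = 0.990), YKR047W (0.972), PET10 (0.972), APS1 (0.970), SUV3 (0.970), YBL036C (0.968), ADI1 (0.963) and ERG10 (0.962). ERG10 encodes the enzyme of the first step of the mevalonate pathway. MEI4 lies 443 bp from ERG28, which encodes a scaffold of the sterol enzymes, SUV3 lies 376 bp from ERG10, and YKR047W and PET10 lie 182 bp apart, so these share windows.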

How the data were processed

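Reads were aligned with BWA to sacCer3, per the submitters' processing notes; the version is not given in the sources used here. The file header calls the deposited values log2 RPKM, but they are neither logged nor divided by length: a value times the windows it averages gives a whole number of equal steps in every library, to within 0.0050 of a step. They were therefore read as RPM averaged by the authors over windows, and not as gene counts. The window number predicted from body and flanks of 1000 bp matched for 6308 of 6547 features. The deposited standard deviations are a signal spread over windows within a library. They served only to check the separation of neighbours (non-negative least squares per chromosome). Predicted and deposited spreads correlated with r (log2) of 0.918 to 0.931 over 6547 features, and 0.927 to 0.942 with gene ends extended by 100 bp. For the 10 genes, the median ratio of predicted to deposited spread in a library was 1.14 to 1.22 without the extension. It was 0.94 to 0.97 with the extension. Coordinates in the text are those of R64, since starts in the table matched R64 exactly for only 989 of 5899 genes (5256 within 10 bp).

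Features that reached 1 RPM in fewer than 2 libraries were dropped (43, leaving 6504). Values on the log2(RPM + 1) scale entered a linear model (limma 3.58.1, R 4.3.3) with time and strain as additive terms (3 residual and 3.82 prior degrees of freedom, mean-dependent prior), two-sided, with Benjamini-Hochberg adjustment over all features and a threshold of 0.05. The fit was also run on simulated data with known changes, the same in both strains, and independent noise. That check cannot cover the spread between cultures or differences between the strains' responses. Differences between single libraries were not tested; their 95% intervals treat the average number of reads in a window as a count. Reads without molecular identifiers are not independent molecules. The members and gene lists were chosen with earlier results of these data known. All 10 members were named. From each further list up to 4 called genes were named or, with none called, up to 3 with the largest fitted change. The lists and their genes were looked up by symbol.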

Additional observations from a re-analysis of the deposited data

Results flagged for a closer look

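For 3 results, the strains moved in opposite directions over the same interval. None of these differences was tested, because each strain and time has 1 library. ERG3 moved from G1 to HU by -0.39 (log2) in WT and by 0.19 in mec1, a difference of 0.58. ERG11 moved from R30 to R60 by 0.30 in WT and by -0.23 in mec1, a difference of -0.53. ERG25 moved over the same interval by 0.17 in WT and by -0.11 in mec1, a difference of -0.29. Samples that stand apart within a group could not be looked for, since no group has more than 1 library.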

How the results depend on the processing

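No paired analysis was possible because each strain and time has 1 library and the labels give no replicate numbers; strain is a term of the fit. The alternatives were another pseudocount (0.1), no filter, quantile or median scaling, no mean-dependent prior, separated neighbours, the 4 libraries compared alone, and each library left out; separation with extended gene ends was added after the data were seen. A library left alone at its time is assumed to vary like the others. In HU minus G1, 2 members were called, 3 with neighbours separated, 1 with the 4 libraries alone, and 0 to 2 with a library left out (0 without either G1 or either HU library). In mec1 minus WT, 0 to 1 were called, ERG24 without either G1 library. Over all features, 543 of 6501 were called higher and 129 lower without WT G1. Without mec1 G1 it was 538 of 6502 higher and 128 lower. These are deposited values, and ERG24 was -0.28 in this comparison with neighbours separated. The other comparisons had 0 called in every alternative. ERG6 was called in 12 of 16 alternatives (-0.96 to -0.79, limma adjusted p 0.0135 to 0.0718) and ERG26 in 9 of 16 (-0.87 to -0.59, 0.0264 to 0.149).

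Called features overall numbered 591 in HU minus G1, and 261 with neighbours separated, 221 with ends extended, 194 with the 4 libraries and 45 to 448 with a library left out. In R30 minus HU they numbered 56, and 19, 23, 17 and 1 to 45, and 3 without the mean-dependent prior. In R60 minus G1 they numbered 103, and 36, 39, 150 and 22 to 118. In R60 minus R30 they numbered 0, with 1 for ends extended and 0 to 23 with a library left out. In mec1 minus WT they numbered 18, and 7 with neighbours separated, 0 with ends extended and 7 to 672 with a library left out.

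Several signs turned, and their cause was not tested. In R60 minus R30, ERG2 became 0.027 (quantile), ERG26 -0.012 (median scaling), -0.00590 (separated) and -0.00887 (extended), ERG24 0.060 (separated) and 0.036 (extended), ERG7 0.031 and the median 0.0092 (extended). In R60 minus G1, ERG7 became 0.40 (extended). In mec1 minus WT, ERG7 became -0.053 and ERG6 -0.026 (median scaling), and ERG24 -0.28 (separated) and -0.30 (extended). Between single libraries, ERG24 became -0.022 (separated) for WT R30 minus HU and 0.15 (separated) and 0.18 (extended) for WT R60 minus R30, and its mec1 minus WT became -0.55 and -0.71 at HU, -0.23 and -0.24 at R60 and -0.049 (separated) at R30. ERG7 became 0.20 (extended) for mec1 R60 minus G1. The ERG24 response difference became -0.28 and -0.40 from G1 to HU, and 0.50 and 0.75 from HU to R30, where the deposited interval spanned 0. With a library left out, ERG3 ran from -0.41 to 0.20 in HU minus G1, and in R60 minus R30 ERG11 from -0.17 to 0.25, ERG25 from -0.070 to 0.13, ERG26 from -0.094 to 0.12, ERG2 from -0.16 to 0.092, ERG27 from -0.30 to 0.083, ERG3 from -0.23 to 0.092 and the median from -0.10 to 0.084. In R60 minus G1, ERG11 ran from -0.019 to 0.57 and ERG7 from -0.24 to 0.028. Of 1827 values under alternatives, 1658 were labelled the same. Of these, 751 fitted changes kept their direction and call, and 77 medians kept their direction. Another 530 single-library differences and 188 strain differences moved within their counting error. The remaining 112 were counts of called genes that stayed equal or close to the main count.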

Other observations

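A few genes of oxygen and haem metabolism moved over the same interval. Of 10 low-oxygen genes, 3 cell wall mannoprotein genes were called higher in HU than in G1, compared with 4.57% of all features. In G1 and HU, TIR1 had 3.86 and 40.5 RPM in the wild type and 3.64 and 40.5 RPM in mec1 (fitted change 3.13 ± 0.17, limma adjusted p = 0.000497). TIR3 had 30.5 and 91.0 RPM, and 27.3 and 109 RPM (1.75 ± 0.15, limma adjusted p = 0.00272). TIR2 had 18.7 and 29.4 RPM, and 22.2 and 63.7 RPM (1.05 ± 0.23, limma adjusted p = 0.0413). TIR1 (2.09) and TIR3 (1.73) were also called higher at R60 than in G1, with limma adjusted p of 0.00435 and 0.00504. Of all features, 0.661% were called higher at R60 than in G1. Of 8 genes of haem metabolism, HMX1, which encodes haem oxygenase, was called lower in HU: it had 117 and 39.8 RPM in the wild type, and 144 and 86.0 RPM in the mutant (-1.13 ± 0.20, limma adjusted p = 0.0223). Of all features, 4.52% were called lower in HU than in G1. No relation of these low-oxygen and haem genes to the ergosterol genes was tested.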
